A study of Mus musculus with 14 samples.

Results

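The proteasome genes of mouse embryonic blood were described over 4 genotype groups. Members were the genes with a probe set that carries a single platform symbol made of Psm, a letter from a to g and a number. The pattern took 49 of the 18194 genes with a single-symbol probe set. Of these, 47 encode proteasome subunits, assembly chaperones, activators or an inhibitor. The other 2 are no proteasome genes and are described apart: Psmc3ip is a recombination factor, and Psme3ip1 encodes a protein that binds Psme3. Where a gene had several such probe sets, the brightest on average was used.

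Blood was collected at E12.5, in mid-gestation, and pooled from 8 to 10 embryos of 1 genotype, and RNA was hybridized to 14 Affymetrix mouse arrays. The first group carried 1 Cbfb-MYH11 allele (Cbfb+/MYH11, 4 arrays), and its comparison group was made of wild-type littermates (WT, 4 arrays). Both came from chimeras with the fusion allele that were bred to C57/Bl6 females. The third group lacked both Cbfb alleles (Cbfb-/-, 3 arrays), and its littermates were Cbfb+/+ (3 arrays), both from crosses of Cbfb+/- parents. Cbfb is the partner of the Runx transcription factors, and its fusion to the smooth muscle myosin MYH11 is known from human acute myeloid leukaemia. Arrays of 1 group are labelled as technical replicates, and nothing says whether they came from separate pools. All p-values rest on the array-to-array spread, which may be technical only. The 4 groups share 1 estimate of that spread, so a test in Cbfb-/- blood also carries the spread of the WT arrays.

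The proteasome degrades proteins tagged with ubiquitin. Its barrel-shaped core particle has outer alpha rings, which gate the entrance, and inner beta rings, which hold the proteolytic sites of Psmb5, Psmb6 and Psmb7. The regulatory particle caps the core: its base unfolds the substrate with ATPases, and its lid removes the ubiquitin. Interferon and lymphoid identity are known to bring in the immunoproteasome subunits Psmb8, Psmb9 and Psmb10, which replace the constitutive catalytic subunits. At this age the circulating blood of a mouse embryo consists mainly of primitive red cells, which lose organelles and much of their protein machinery as they mature.

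The median log2 value over all probe sets was 4.27 to 4.33 on the Cbfb+/MYH11 arrays, against 4.37 to 4.46 on the WT arrays. It was 4.34 to 4.36 on the Cbfb-/- arrays, against 4.40 to 4.42 on the Cbfb+/+ arrays. The mean over the 7393 tested genes was 7.31 to 7.44 on the Cbfb+/MYH11 arrays, against 6.90 to 7.21 on the WT arrays, and 7.23 to 7.28 on the Cbfb-/- arrays, against 7.04 to 7.07 on the Cbfb+/+ arrays. The number of arrays limits the precision. Erythroid marker genes averaged between 13.1 and 13.3 on all 14 arrays, which matches the labelled tissue. The Cbfb probe set differed by 0.33 in Cbfb+/MYH11 against WT (adjusted p = 0.533) and by 0.48 in Cbfb-/- against Cbfb+/+ (adjusted p = 0.453). Its place in the gene was not determined, so it is no check of the labels. In the cross with the fusion, arrays 1 and 2 of a genotype were close to each other, as were arrays 3 and 4. Log2 differences over all tested genes had an SD of 0.114 to 0.276 within these pairs and of 0.364 to 0.714 between them. Changes in that cross are therefore also given within each pair.

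In Cbfb+/MYH11 blood, 29 of the 43 proteasome genes that passed the filter on low values rose (67.4%), where 30.5% of all 7393 tested genes rose. In Cbfb-/- blood, 15 of the 43 rose (34.9%), where 19.5% of all genes did. A gene is said to have risen or fallen if it differed by at least 1.5-fold at an adjusted p under 0.05 (limma, Benjamini-Hochberg over all tested genes). The median proteasome gene differed by 0.72 on the log2 scale in Cbfb+/MYH11 against WT, and the median of all tested genes by 0.26. In Cbfb-/- against Cbfb+/+ these medians were 0.43 and 0.13. The median of all genes depended on the filter on low values. With the fusion it was -0.11 without a filter and 0.39 with a filter at 7. In Cbfb-/- blood it was -0.05 and 0.17. The proteasome medians were then 0.69 and 0.72 with the fusion, and 0.41 and 0.47 in Cbfb-/- blood. A background of genes of like level is not given here. Leaving out 1 array gave 22 to 30 rises with the fusion, the fewest without WT array 1. For the loss of Cbfb it gave 8 to 17 rises, with 8 without Cbfb-/- array 1 and 9 without Cbfb+/+ array 3. Fits on the 2 groups of a comparison alone gave 28 rises with the fusion and 17 in Cbfb-/- blood. In Cbfb-/- blood 2208 of all genes then passed, against 1935 in the main fit. With the arrays averaged to putative pools (each pair of the fusion cross, and all 3 arrays of a group in the other), limma called 0 members in either mutant. Of all 7393 genes it then called 18 with the fusion and 0 in Cbfb-/- blood. At an unadjusted p under 0.05 it gave 22 members higher and 1 lower with the fusion and 0 in Cbfb-/- blood, where single pools were assumed to vary like the others. Of all genes, 2152 and 336 passed at that p. Fewer cells of a type and less RNA per cell cannot be told apart in pooled blood.

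No proteasome gene fell by this rule in either mutant, where 5.63% of all genes fell in Cbfb+/MYH11 and 6.65% in Cbfb-/- blood. At an unadjusted p under 0.05, limma gave 2 lower members in Cbfb+/MYH11, Psma5 and Psme4, and 1 in Cbfb-/-, Psme3. All 3 also had an adjusted p under 0.05 but a difference of less than 1.5-fold. A positive difference was fitted for 39 of the 43 genes in Cbfb+/MYH11 and for 40 in Cbfb-/-. The filter, a log2 value of 6 on at least 3 arrays, was met by 36 of the 47 genes on all 14 arrays, and 4 genes did not pass it. The arrays did not overlap for 38 of 43 genes in the first comparison, where 53.1% of all genes did not overlap, and for 37 of 43 in the second, where that share was 69.3%.

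Of the 43 genes, 13 rose in both mutants (30.2%), where 10.4% of all genes did. A further 16 passed the test only in Cbfb+/MYH11, 2 only in Cbfb-/- (Psmb6 and Psmg4), and 12 in neither. Passing in 1 comparison and missing in the other is no test of a difference between them. The difference of the 2 effects itself passed for Psma5, which was lower with the fusion (6.07% of all genes), and for Psmd10, which was higher (14.9% of all genes). Psmd10 met the filter only through the Cbfb+/MYH11 arrays, where it is high, so its test is not independent of the filter.

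**Figure D1:**
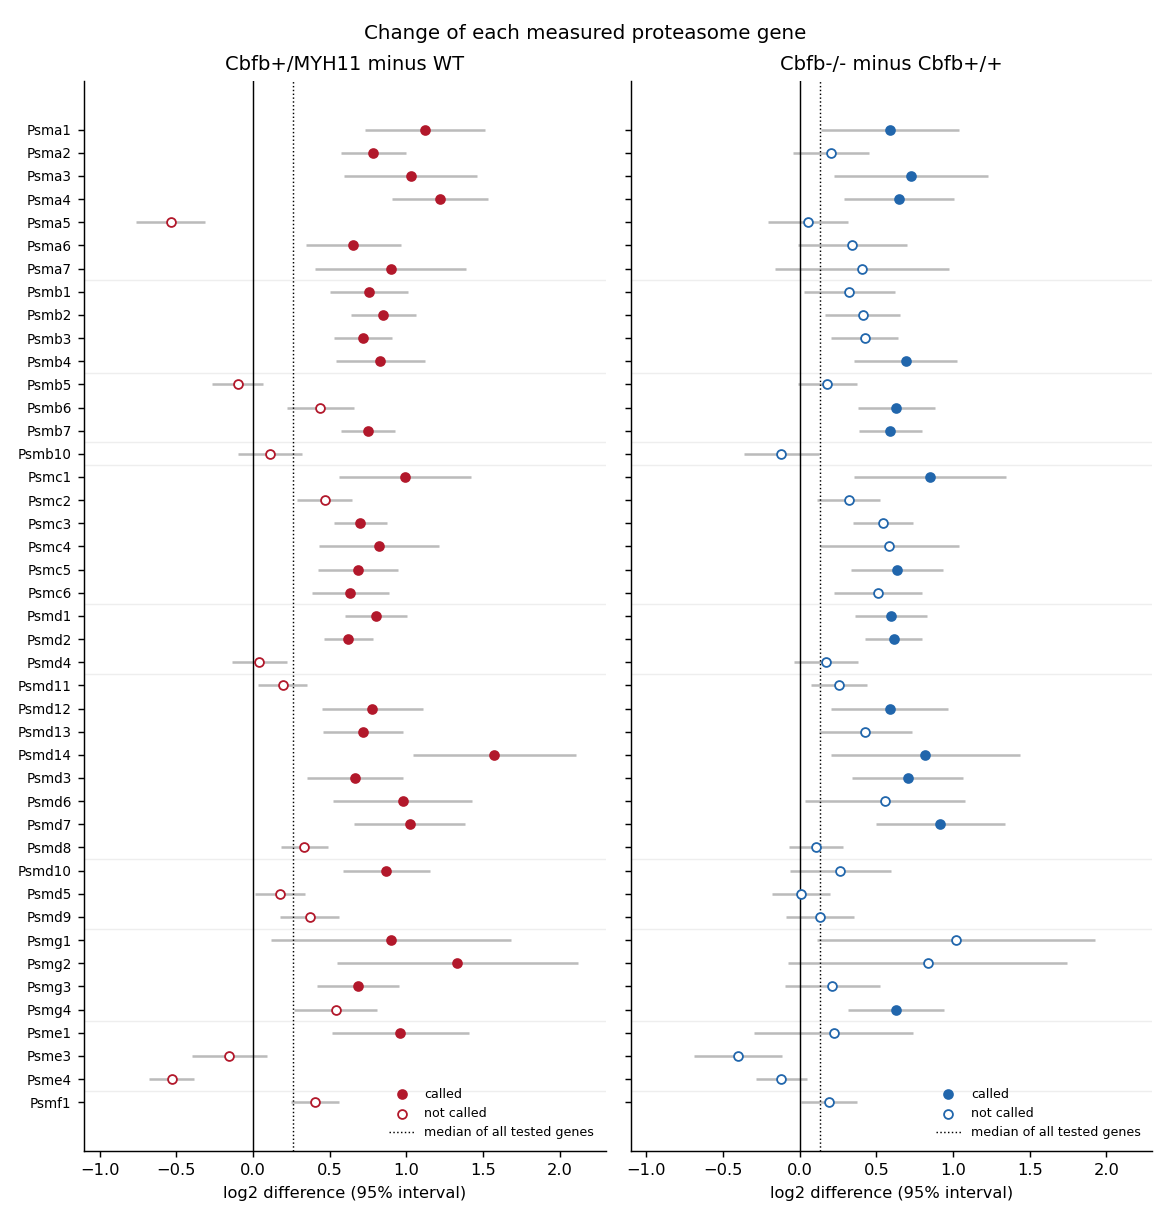
Each row is 1 of the 43 tested proteasome genes, ordered by role, with the log2 difference of Cbfb+/MYH11 minus WT on the left and of Cbfb-/- minus Cbfb+/+ on the right. Points are fitted differences, bars 95% intervals, filled points genes that passed the test, and the dotted line is the median of all tested genes. The alpha ring, beta ring, ATPase and lid genes lie mostly right of the dotted line in both panels. For the fusion, Psma5, Psme4, Psme3 and Psmb5 lie left of 0.

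The extent of the rises, and how far their share exceeded that of all genes, depended on how the arrays were scaled. Quantile normalization of the deposited values moved the median change of all genes to -0.04 in Cbfb+/MYH11 and to -0.05 in Cbfb-/- blood, while the proteasome medians were 0.37 and 0.24. In Cbfb+/MYH11, 9 of the 43 members then rose, a share near the 17.3% of all genes that did. All 9 are among the 29. They were Psma1, Psma3, Psma4, Psmc1, Psmd6, Psmd7, Psmd10, Psmd14 and Psmg2. Psma5 and Psme4 fell by 0.83 and 0.78 under this scaling, where 14.3% of all genes fell. Over all genes, 1290 rose and 1070 fell in Cbfb+/MYH11 under quantile normalization, against 2255 and 416 as deposited. In Cbfb-/- blood only Psmc1 and Psmd7 of the 43 remained past the test. That share is below the 13.3% of all genes that rose.

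**Figure D2:**
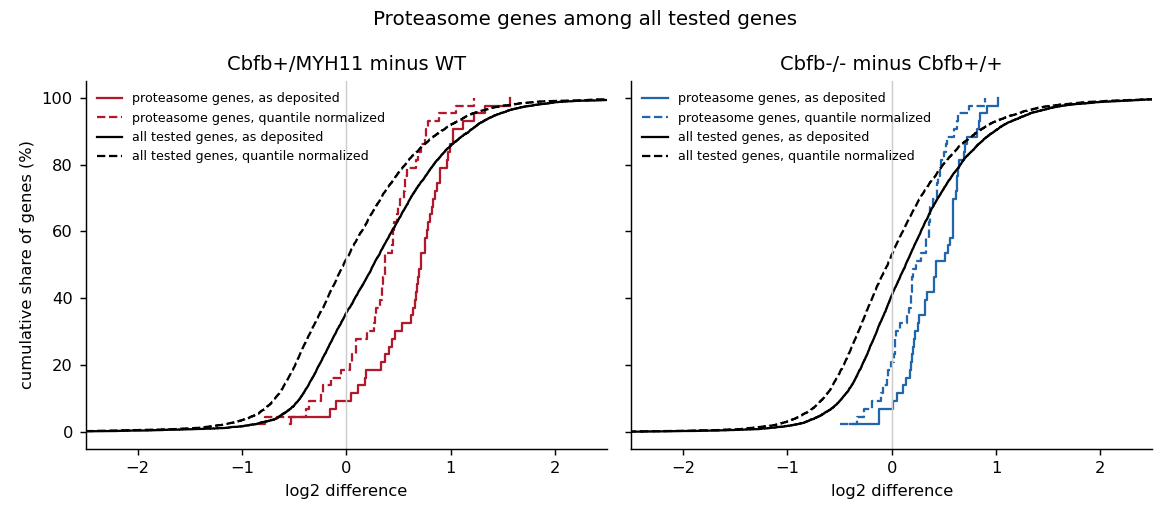
Cumulative share of genes (%) against the log2 difference, for Cbfb+/MYH11 minus WT on the left and Cbfb-/- minus Cbfb+/+ on the right. Coloured lines are the 43 proteasome genes and black lines all tested genes, solid as deposited and dashed after quantile normalization; the medians of the proteasome genes are 0.72 and 0.37 on the left and 0.43 and 0.24 on the right.

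The core and regulatory particles had 31 subunit genes in all. Of them 24 rose in Cbfb+/MYH11 (77.4%) and 14 in Cbfb-/- blood (45.2%), where 30.5% and 19.5% of all genes rose. Their median differences were 0.75 and 0.56, against 0.26 and 0.13 over all genes. These values of all genes are also the background for the counts by role and by marker list below. Their mean per array lay between 9.37 and 9.45 on the Cbfb+/MYH11 arrays, against 8.39 to 8.99 on the WT arrays. On the Cbfb-/- arrays it lay between 9.36 and 9.43, against 8.87 to 8.91 on the Cbfb+/+ arrays. The mutant arrays of both crosses thus covered almost the same range, while the WT arrays spread most widely. Of the spread among WT arrays, arrays 1 and 2 were the low ones: the median proteasome gene was at -0.40 in them relative to WT arrays 3 and 4, where the median of all genes was at -0.13.

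**Figure D3:**
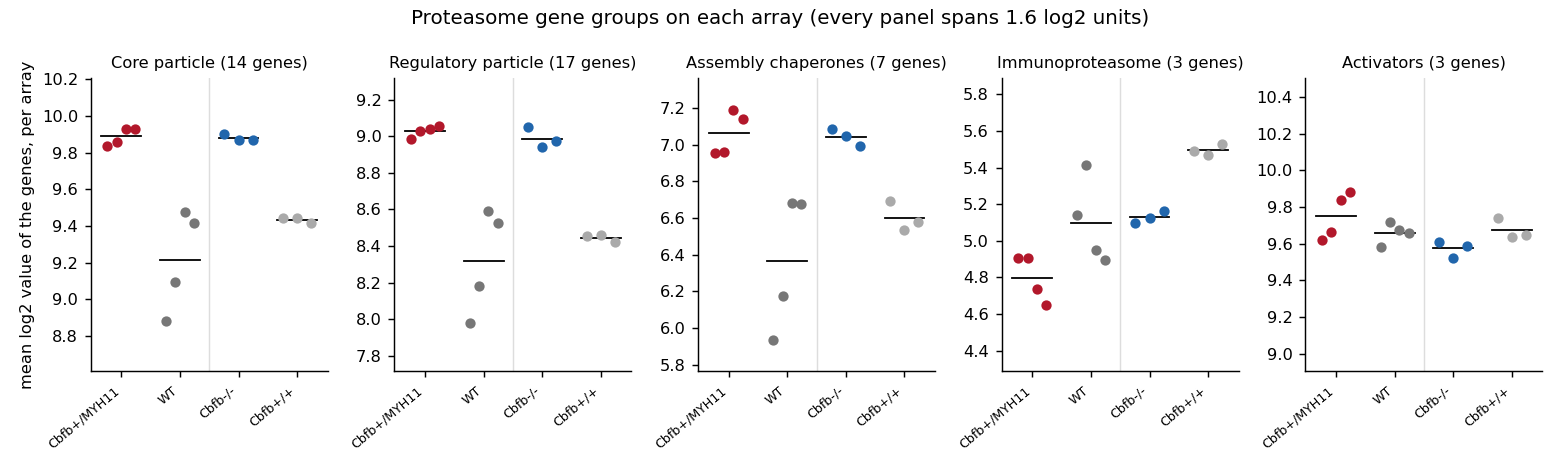
Mean log2 value of the genes of a role on each array (points) with the group mean (line), in Cbfb+/MYH11, WT, Cbfb-/- and Cbfb+/+ blood; every panel spans the same range. The means of the core particle, the regulatory particle and all 7 assembly chaperones are higher on every mutant array than on every array of its littermates. The ranges of the activators and of the immunoproteasome overlap in the cross with the fusion. In the other cross both are lower on every Cbfb-/- array than on every Cbfb+/+ array.

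Within arrays 1 and 2 of the fusion cross, 31 of the 43 genes rose, with a median of 0.84, where 37% of all genes rose. Within arrays 3 and 4, 19 rose, with a median of 0.53, where 24.6% of all genes did. The 19 rose within both pairs (44.2%), where 20.8% of all genes did. Of the 43 genes Psmg1 differed most between the pairs, with 1.55 within arrays 1 and 2 and 0.25 within arrays 3 and 4. Psmd14 was at 2.16 and 0.98. Psme1 ran the other way, with 0.82 and 1.10.

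**Figure D4:**
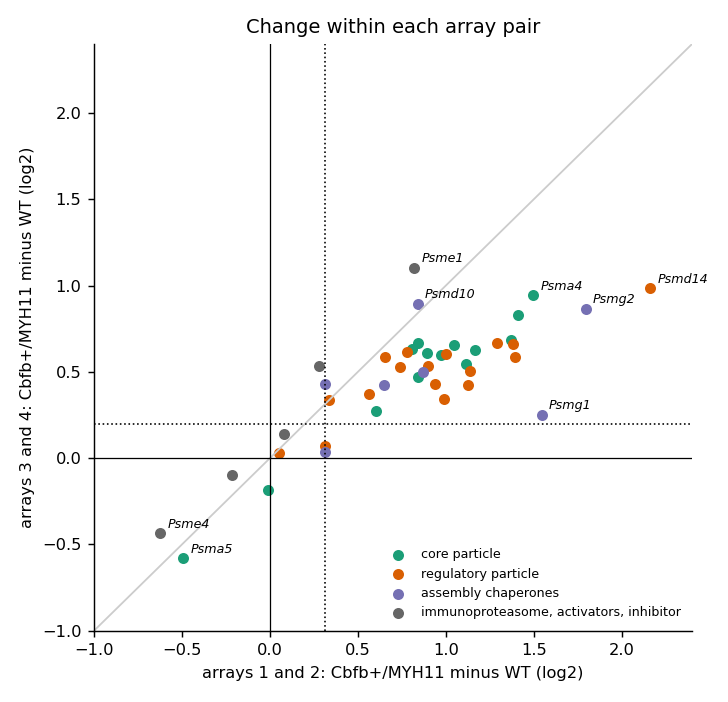
Log2 difference of Cbfb+/MYH11 minus WT within arrays 3 and 4 (vertical) against that within arrays 1 and 2 (horizontal), 1 point per tested proteasome gene, coloured by role. The grey line marks equal differences and the dotted lines the medians of all tested genes; most points lie below the grey line, with Psmg1 farthest (1.55 and 0.25) and Psme1 above it (0.82 and 1.10).

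Other cells and the cell cycle moved with the same groups. All 6 tested cell cycle markers rose in Cbfb+/MYH11 and 3 of 6 in Cbfb-/- blood. Their array means were 9.06 to 9.26 in Cbfb+/MYH11, against 7.16 to 8.18 in WT, and 8.92 to 9.07 in Cbfb-/-, against 8.18 to 8.25 in Cbfb+/+. Of 10 macrophage markers, 7 fell in Cbfb+/MYH11 and 10 in Cbfb-/-, with array means of 5.28 to 5.33, against 5.87 to 7.76 in WT, and of 5.19 to 5.46, against 7.35 to 7.39 in Cbfb+/+. Platelet markers fell for 5 of 7 genes (5.93 to 6.07, against 7.36 to 9.16 in WT) and for 7 of 7 (6.34 to 6.40, against 8.54 to 8.64 in Cbfb+/+).

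Mast cell and basophil markers rose for 4 of 4 genes in Cbfb+/MYH11 (7.92 to 8.45, against 3.86 to 4.33 in WT) and for none in Cbfb-/- blood, where 1 fell (3.65 to 3.95, against 4.17 to 4.30 in Cbfb+/+). Neural markers rose for 3 of 5 genes in Cbfb+/MYH11 (5.92 to 7.75, against 3.93 to 5.79 in WT) and for 5 of 5 in Cbfb-/- (7.42 to 7.62, against 3.85 to 4.15 in Cbfb+/+). Liver or visceral endoderm markers fell for 3 of 6 with the fusion (5.29 to 6.62, against 5.70 to 8.26 in WT) and rose for 4 of 6 in Cbfb-/- (8.34 to 8.53, against 7.03 to 7.05 in Cbfb+/+). The direction of the liver markers turned between the array pairs of the fusion cross, with median changes of -2.33 within arrays 1 and 2 and 0.80 within arrays 3 and 4. Macrophage marker medians were -2.73 and -1.23 within these pairs. No erythroid marker passed the test in either mutant. The part of these cells in the proteasome result was not tested.

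The alpha ring had 6 of 7 genes higher in Cbfb+/MYH11 and 3 of 7 in Cbfb-/- blood, with medians of 0.90 and 0.41. Psma4 read 9.82, 9.91, 10.02 and 9.87 on the Cbfb+/MYH11 arrays, against 8.29, 8.45, 9.03 and 8.96 on the WT arrays. It read 9.67, 9.58 and 9.70 on the Cbfb-/- arrays, against 9.04, 9.02 and 8.95 on the Cbfb+/+ arrays. No mutant array overlapped with its littermates, and the 2 lowest values belonged to WT arrays 1 and 2. Psma4 rose 2.33-fold with the fusion (limma, adjusted p = 1.9e-05) and 1.57-fold without Cbfb (adjusted p = 0.00936).

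Psma1, another alpha ring gene, read 9.64, 9.56, 9.76 and 9.82 in Cbfb+/MYH11, against 8.02, 8.34, 9.08 and 8.84 in WT. Its values were 9.27, 9.17 and 9.23 in Cbfb-/-, against 8.53, 8.69 and 8.68 in Cbfb+/+. The groups were apart in both crosses. Psma1 rose 2.18-fold with the fusion (adjusted p = 0.000193) and 1.5-fold in Cbfb-/- (adjusted p = 0.0366), which is close to the threshold on both counts. The call in Cbfb-/- ended when any single array of that cross was left out, with an adjusted p of 0.0663 to 0.101. Psma3 rose by 1.03 and 0.73 on the log2 scale, and Psma2, Psma6 and Psma7 rose with the fusion by 0.78, 0.65 and 0.90. The call of Psma3 in Cbfb-/- blood ended in 5 of the 6 fits that leave out an array of that cross (adjusted p of 0.052 to 0.0732), and that of Psma6 with the fusion without WT array 1 (0.52). Psma2, Psma6 and Psma7 were at 0.20, 0.34 and 0.41 in Cbfb-/- blood and did not pass.

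Psma5 was the exception of the alpha ring. It read 9.31, 9.30, 9.49 and 9.56 in Cbfb+/MYH11, against 9.66, 9.93, 10.13 and 10.08 in WT. In the other cross it read 9.99, 10.01 and 9.92 in Cbfb-/-, against 9.96, 9.89 and 9.91 in Cbfb+/+. All 4 fusion arrays lay below all WT arrays, while the Cbfb-/- and Cbfb+/+ arrays overlapped. The change was -0.54 on the log2 scale with the fusion (adjusted p = 0.000758, short of 1.5-fold; past it at -0.59 without Cbfb+/MYH11 array 4 and at -0.63 without WT array 1) and 0.06 in Cbfb-/- (adjusted p = 0.718). The difference between these effects was -0.59 with a 95% interval of -0.94 to -0.25 (adjusted p = 0.0151). This lies just past the 1.5-fold floor, and it passed in 7 of the 14 fits that leave out 1 array, over which it ranged from -0.69 to -0.53. It was -0.54 and short of the floor with arrays centred on their medians, and -0.24 with the mean of the gene's probe sets (adjusted p = 0.114). A second Psma5 probe set gave -0.57 with the fusion and -0.20 in Cbfb-/-.

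The 4 non-catalytic beta ring genes all rose with the fusion, by 0.75 (Psmb1), 0.85 (Psmb2), 0.72 (Psmb3) and 0.83 (Psmb4) on the log2 scale. In Cbfb-/- blood Psmb4 rose by 0.69 (adjusted p = 0.00493). Psmb1, Psmb2 and Psmb3 were at 0.32, 0.41 and 0.42 there, below the 1.5-fold floor. A second Psmb3 probe set gave 0.36 with the fusion and 0.19 in Cbfb-/- blood, both under the floor. A second Psmb4 probe set gave 0.90 and 0.60, the latter without passing (limma, adjusted p = 0.134).

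The catalytic genes divided. Psmb7, which carries the trypsin-like site, read 11.14, 11.14, 11.12 and 11.09 in Cbfb+/MYH11, against 10.20, 10.29, 10.54 and 10.45 in WT. It read 11.54, 11.37 and 11.42 in Cbfb-/-, against 10.88, 10.86 and 10.81 in Cbfb+/+. Each mutant was clear of its littermates. Psmb7 rose 1.68-fold with the fusion (adjusted p = 1.13e-05) and 1.51-fold in Cbfb-/- (adjusted p = 0.000793). The second rise fell short of 1.5-fold without Cbfb-/- array 1 (0.54) or without Cbfb+/+ array 3 (0.57).

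Psmb6, with the caspase-like site, read 9.34, 9.32, 9.27 and 9.37 in Cbfb+/MYH11, against 8.56, 8.89, 9.04 and 9.04 in WT. Its values were 9.74, 9.85 and 9.85 in Cbfb-/-, against 9.16, 9.26 and 9.13 in Cbfb+/+. The arrays of mutants and littermates did not overlap in either cross. Psmb6 rose 1.55-fold in Cbfb-/- (adjusted p = 0.00174) and was 1.36-fold higher with the fusion, under the floor (adjusted p = 0.00236). The 2 effects differed by -0.19 with an interval of -0.52 to 0.14 (adjusted p = 0.395).

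Psmb5, with the chymotrypsin-like site that proteasome inhibitor drugs bind, read 10.19, 10.18, 10.18 and 10.16 in Cbfb+/MYH11, against 10.08, 10.32, 10.36 and 10.35 in WT. It read 10.68, 10.56 and 10.56 in Cbfb-/-, against 10.44, 10.40 and 10.41 in Cbfb+/+. The fusion arrays lay above WT array 1 and below the other 3 WT arrays, and the Cbfb-/- arrays lay just above those of Cbfb+/+. The log2 differences were -0.10 with an interval of -0.26 to 0.07 (adjusted p = 0.275; 0.01 with arrays centred on their medians, and -0.17 at an adjusted p of 0.046 without WT array 1) and 0.18 with an interval of -0.01 to 0.37 (adjusted p = 0.11). Both intervals stay under the 1.5-fold floor of 0.585.

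**Figure D5:**
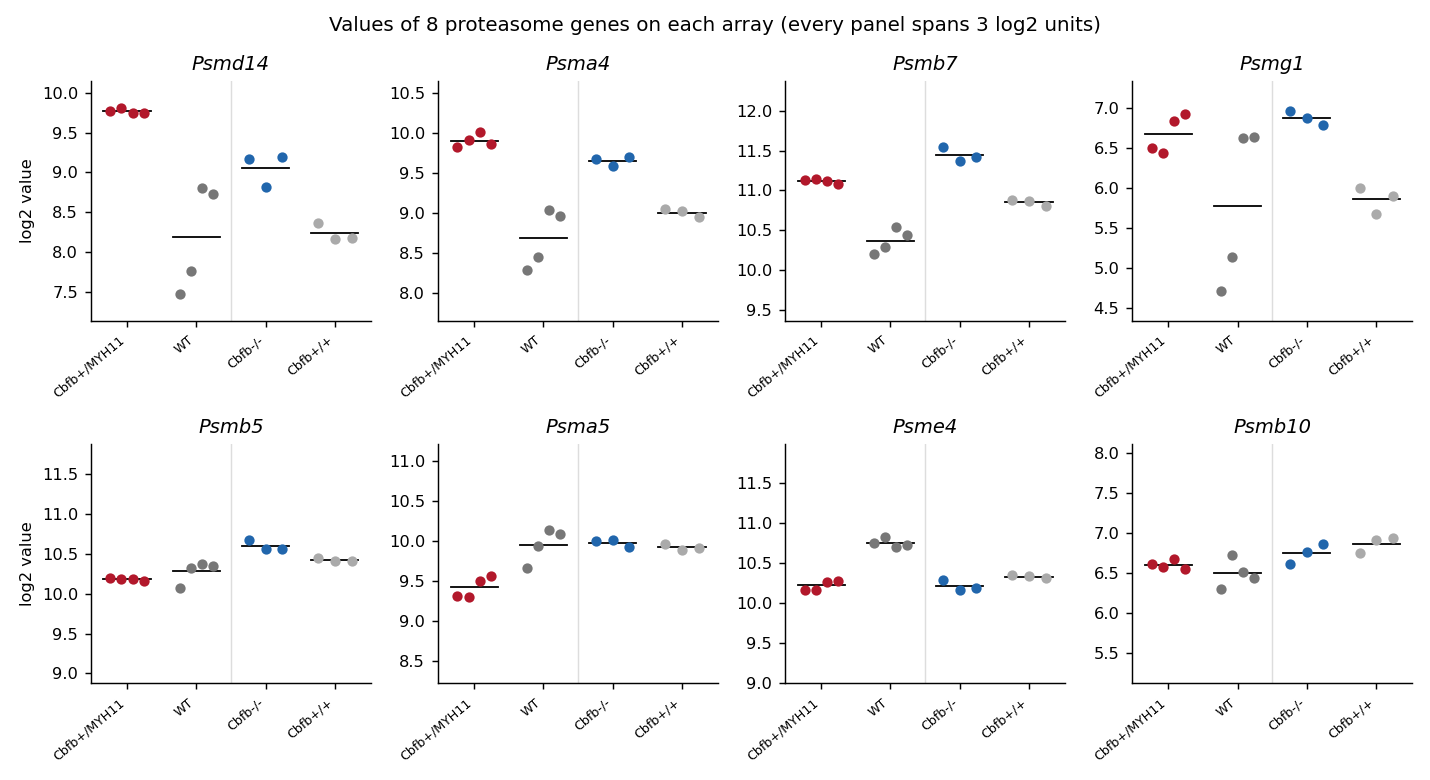
Log2 values of 8 proteasome genes on each array (points) with the group mean (line), in Cbfb+/MYH11, WT, Cbfb-/- and Cbfb+/+ blood; every panel spans the same number of log2 units, so that heights compare as differences. Psmd14, Psma4 and Psmb7 are higher on all mutant arrays, Psma5 and Psme4 are lower on all Cbfb+/MYH11 arrays than on all WT arrays, Psmg1 splits the WT arrays into pairs, and Psmb5 and Psmb10 overlap between Cbfb+/MYH11 and WT.

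Nfe2l1 is known to drive many proteasome genes together through antioxidant response elements, so the promoter windows were searched for the core of that element, TGACNNNGC, on both strands. RefSeq windows (GRCm38.p6) of 250 bases before to 50 after the annotated start were matched for 39 of the 47 genes. Of them 6 hold the core (15.4%): Psmb5, Psmb6, Psmc6, Psmd9, Psmd12 and Psme4. The share was 15.3% among 6054 windows of tested genes and 12.47% among 27025 windows of all genes. Of the 6 genes 2 rose with the fusion and 2 in Cbfb-/- blood, against 20 and 10 of the 30 tested genes whose window lacks it. Psmb5 and Psmb6 are shown because they share the motif and their catalytic role while 1 passed the test in Cbfb-/- blood and the other did not. Capitals mark the motif, whose first base lies at -47 and at -9 from the start.
Psmb5 (chr14:54617946-54618245, - strand): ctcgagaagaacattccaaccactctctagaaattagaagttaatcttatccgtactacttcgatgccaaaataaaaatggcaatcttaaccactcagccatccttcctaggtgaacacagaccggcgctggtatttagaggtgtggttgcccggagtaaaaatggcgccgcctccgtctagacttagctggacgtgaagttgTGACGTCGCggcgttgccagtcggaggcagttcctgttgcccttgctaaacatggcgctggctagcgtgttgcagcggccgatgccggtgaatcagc
Psmb6 (chr11:70525107-70525406, + strand): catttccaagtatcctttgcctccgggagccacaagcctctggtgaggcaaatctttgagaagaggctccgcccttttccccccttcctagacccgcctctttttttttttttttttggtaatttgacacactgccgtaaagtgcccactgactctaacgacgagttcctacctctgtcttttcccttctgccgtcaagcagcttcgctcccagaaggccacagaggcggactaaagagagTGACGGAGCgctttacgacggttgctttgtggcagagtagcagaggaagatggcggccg

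Other promoter letters were counted in the same windows, without regard to overlap between motifs. CCGGAAG, bound by ETS factors, was in 33.3% of the proteasome windows and in 20.3% of those of tested genes. CCAAT was in 35.9% and 38.6%, and GGGCGG, the GC box, in 56.4% and 67.4%. The core of the interferon-stimulated response element was in 5 of 39 windows (12.8%) and in 2.69% of those of tested genes. Its holders were Psmb3, Psmd4, Psmd9, Psme1 and Psmg4. A match describes the letters of a window and shows no binding.

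Among the ATPases of the base, 5 of 6 rose with the fusion and 2 of 6 in Cbfb-/- blood, with medians of 0.69 and 0.56. Psmc1 read 7.34, 7.37, 7.44 and 7.43 in Cbfb+/MYH11, against 5.85, 6.07, 6.84 and 6.86 in WT. It read 7.96, 7.54 and 7.71 in Cbfb-/-, against 6.90, 6.81 and 6.96 in Cbfb+/+. Neither mutant overlapped with its littermates, and WT arrays 1 and 2 were the lowest of all 14. Psmc1 rose 1.99-fold (adjusted p = 0.000942) and 1.80-fold (adjusted p = 0.0119) and passed in all 14 fits that leave out 1 array. Psmc5 rose by 0.68 and 0.64, and Psmc2 was at 0.47 and 0.32, under the floor. Psmc3, Psmc4 and Psmc6 rose with the fusion by 0.70, 0.82 and 0.64. In Cbfb-/- blood they were at 0.54, 0.5846 and 0.51, with Psmc4 just short of the floor of 0.5850. A second probe set gave 0.98 for Psmc4 and 0.90 for Psmc6 in Cbfb-/- blood. The calls of Psmc5 and Psmc6 with the fusion ended without WT array 1 (0.58 and 0.52).

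Psmd1 and Psmd2, the large scaffold subunits of the base, rose by 0.80 and 0.62 with the fusion and by 0.59 and 0.61 in Cbfb-/- blood. Psmd2 fell short of the floor with the fusion without WT array 1 (0.58), and in Cbfb-/- blood without Cbfb-/- array 1 (0.57) or Cbfb+/+ array 3 (0.58). Psmd1 did so in Cbfb-/- blood without Cbfb-/- array 2 (0.58). Psmd4, a ubiquitin receptor, read 10.09, 9.94, 10.06 and 10.07 in Cbfb+/MYH11, against 9.80, 10.13, 10.05 and 10.01 in WT. It read 10.14, 10.16 and 10.09 in Cbfb-/-, against 10.02, 10.02 and 9.84 in Cbfb+/+. The fusion and WT arrays overlapped, and the Cbfb-/- arrays lay above those of Cbfb+/+. Psmd4 was at 0.04 (-0.23 under quantile normalization) and 0.17. Its 3 probe sets differed in sign with the fusion, at 0.04, 0.08 and -0.28.

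The lid held the largest rise with the fusion. Psmd14, the enzyme that cuts ubiquitin chains off the substrate, read 9.77, 9.81, 9.75 and 9.75 in Cbfb+/MYH11, against 7.48, 7.76, 8.81 and 8.73 in WT. In the other cross it read 9.16, 8.81 and 9.20 in Cbfb-/-, against 8.37, 8.17 and 8.18 in Cbfb+/+. The groups did not overlap in either cross. Psmd14 rose 2.98-fold with the fusion, with a 95% interval of 1.04 to 2.11 on the log2 scale (adjusted p = 0.000159). It rose 1.76-fold in Cbfb-/- (adjusted p = 0.0339), a call that ended without Cbfb-/- array 1 or 3 or without any 1 of the Cbfb+/+ arrays, at an adjusted p of 0.0568 to 0.096. The effects differed by 0.75 with an interval of -0.06 to 1.57 (adjusted p = 0.162).

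Psmd7, the lid subunit that pairs with Psmd14, read 7.02, 7.38, 7.07 and 7.16 in Cbfb+/MYH11, against 5.72, 5.91, 6.53 and 6.38 in WT. It read 7.26, 7.16 and 7.10 in Cbfb-/-, against 5.98, 6.44 and 6.34 in Cbfb+/+. Mutants and littermates were apart throughout. It rose 2.03-fold (adjusted p = 0.00023) and 1.89-fold (adjusted p = 0.00358), and both rises also passed under quantile normalization. Of the 8 lid genes 6 rose with the fusion and 4 in Cbfb-/- blood, with medians of 0.75 and 0.57. The others that rose with the fusion were Psmd3 (0.66), Psmd6 (0.98), Psmd12 (0.78) and Psmd13 (0.72), and in Cbfb-/- blood Psmd3 (0.70) and Psmd12 (0.59). Psmd6 and Psmd13 were at 0.56 and 0.43 in Cbfb-/- blood and did not pass. Psmd3 and Psmd13 with the fusion fell short without WT array 1 (0.49 and 0.58), and Psmd12 in Cbfb-/- missed the adjusted p without Cbfb-/- array 1 or 3 or Cbfb+/+ array 3 (0.0501 to 0.056).

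Psmd8 and Psmd11 were the lid genes that passed in neither mutant. Psmd8 read 9.92, 10.05, 10.06 and 10.13 in Cbfb+/MYH11, against 9.62, 9.69, 9.74 and 9.78 in WT, and 10.13, 10.06 and 10.10 in Cbfb-/-, against 10.04, 9.95 and 9.97 in Cbfb+/+. The mutant arrays were all above those of their littermates, by 0.34 and 0.11 on average. Psmd11 read 10.33, 10.33, 10.19 and 10.27 in Cbfb+/MYH11, against 9.97, 10.06, 10.17 and 10.15 in WT, and 10.00, 9.84 and 9.88 in Cbfb-/-, against 9.65, 9.67 and 9.63 in Cbfb+/+. These too did not overlap, at 0.19 and 0.26. Psmd11 has 3 further probe sets past the filter. From the brightest to the dimmest they gave 0.05 and 0.03, 0.54 and 0.74, and 1.02 and 1.39. Of the 43 genes, 29 were read by 1 probe set past the filter and 14 by several. In 13 of the 14 the probe sets had 1 direction with the fusion, Psmd4 being the exception.

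Core assembly chaperones had 3 of 4 genes higher with the fusion and 1 of 4, Psmg4, in Cbfb-/- blood. Psmg1 and Psmg2 form a pair that guides the alpha ring together. Psmg2 read 7.26, 7.39, 7.97 and 8.03 in Cbfb+/MYH11, against 5.21, 5.85, 7.09 and 7.19 in WT. It read 7.58, 7.45 and 7.46 in Cbfb-/-, against 6.53, 6.67 and 6.79 in Cbfb+/+. No mutant array overlapped with its littermates. Psmg2 rose 2.52-fold with the fusion (adjusted p = 0.00681). In Cbfb-/- blood it was 1.78-fold higher without passing (adjusted p = 0.119; 0.0154 with the replicate number as a block, and 0.0399 without WT array 1). That test uses a spread shared with the WT arrays, which ranged from 5.21 to 7.19.

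Psmg1 read 6.50, 6.44, 6.84 and 6.92 in Cbfb+/MYH11, against 4.71, 5.13, 6.62 and 6.63 in WT. Its values were 6.97, 6.88 and 6.78 in Cbfb-/-, against 6.0, 5.67 and 5.90 in Cbfb+/+. WT arrays 3 and 4 lay above 2 of the fusion arrays, whereas the Cbfb-/- arrays were clear of the Cbfb+/+ arrays. Psmg1 rose 1.86-fold with the fusion (adjusted p = 0.0449). That call held in 2 of the 14 fits without 1 array, those without WT array 3 or 4, and its value was 0.54 without WT array 1. In Cbfb-/- blood it was 2.03-fold higher, the largest difference of a member there, at an adjusted p of 0.0639 (0.0189 with the replicate block). It passed there without WT array 1, 3 or 4 (0.0198 to 0.0373).

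Psmg3 rose by 0.69 with the fusion and was at 0.21 in Cbfb-/- blood. Psmg4 rose by 0.63 in Cbfb-/- blood, or 0.56 and short of the floor without Cbfb-/- array 1. With the fusion it was at 0.54, which passed without Cbfb+/MYH11 array 2 (0.59), WT array 3 (0.62) or WT array 4 (0.60).

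Of the 3 chaperones of the regulatory particle, 1 rose with the fusion and 0 in Cbfb-/- blood. Psmd10, also called gankyrin, read 6.63, 6.53, 6.84 and 6.79 in Cbfb+/MYH11, against 5.46, 6.03, 5.98 and 5.86 in WT. It read 5.73, 5.93 and 5.77 in Cbfb-/-, against 5.77, 5.41 and 5.45 in Cbfb+/+. The fusion arrays stood above the other 10, and the Cbfb-/- and Cbfb+/+ arrays overlapped. It rose 1.82-fold with the fusion (adjusted p = 0.000124) and was at 0.27 in Cbfb-/- (adjusted p = 0.166). The effects differed by 0.60 with an interval of 0.17 to 1.04 (adjusted p = 0.042), which passed in 4 of the 14 fits without 1 array and missed under quantile normalization (0.48, adjusted p = 0.111). Its level on the Cbfb+/MYH11 arrays was the condition for its test. Without Psmd10, 28 of 42 members rose with the fusion.

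Psmd5, a chaperone of the ATPase ring, read 8.53, 8.52, 8.33 and 8.31 in Cbfb+/MYH11, against 8.15, 8.26, 8.27 and 8.30 in WT, and 8.51, 8.48 and 8.44 in Cbfb-/-, against 8.54, 8.42 and 8.45 in Cbfb+/+. It was at 0.18 and 0.01, with overlap in the second cross, and at -0.24 and -0.19 under quantile normalization. Psmd9 read 6.80, 6.81, 6.87 and 6.82 in Cbfb+/MYH11, against 6.33, 6.66, 6.42 and 6.40 in WT, and 7.30, 7.28 and 7.28 in Cbfb-/-, against 7.31, 7.16 and 6.98 in Cbfb+/+. It was at 0.37 and 0.13 (-0.08 in Cbfb-/- under quantile normalization). Its arrays overlapped only in the second cross. Neither gene passed in either mutant.

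The activators went separate ways. Psme1, a subunit of the interferon-inducible activator ring, read 8.32, 8.39, 9.12 and 9.21 in Cbfb+/MYH11, against 7.43, 7.65, 8.09 and 8.03 in WT. It read 8.17, 8.10 and 8.29 in Cbfb-/-, against 8.11, 7.84 and 7.93 in Cbfb+/+. The fusion arrays were all above the WT arrays, and the other cross overlapped. Psme1 rose 1.95-fold with the fusion (adjusted p = 0.00156). In Cbfb-/- it was at 0.22 (-0.01 under quantile normalization; adjusted p = 0.461), and the effects differed by 0.74 with an interval of 0.05 to 1.43 (adjusted p = 0.105). The probe set of its partner Psme2 carries 2 symbols, and Psme2 was not analysed here.

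Psme4, a nuclear activator, read 10.17, 10.17, 10.27 and 10.28 in Cbfb+/MYH11, against 10.75, 10.83, 10.70 and 10.73 in WT. It read 10.29, 10.17 and 10.19 in Cbfb-/-, against 10.35, 10.34 and 10.31 in Cbfb+/+. All mutant arrays were below those of their littermates. The change was -0.53 with the fusion, with an interval of -0.67 to -0.39 (adjusted p = 3.2e-05), which is 1.44-fold lower and under the floor. In Cbfb-/- it was -0.12 (adjusted p = 0.22). Within arrays 1 and 2 it fell by 0.62, and within arrays 3 and 4 it was at -0.44. All 3 Psme4 probe sets past the filter were lower with the fusion, at -0.53, -0.44 and -0.44. The difference between the effects was -0.41 (adjusted p = 0.00999), also under the floor.

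Psme3, which forms a nuclear ring of its own, read 10.37, 10.44, 10.11 and 10.15 in Cbfb+/MYH11, against 10.57, 10.67, 10.24 and 10.21 in WT. It read 10.37, 10.31 and 10.29 in Cbfb-/-, against 10.75, 10.73 and 10.70 in Cbfb+/+. The arrays overlapped in the cross with the fusion and did not in the other. Psme3 was at -0.15 (adjusted p = 0.251) and at -0.40 (adjusted p = 0.0264), the second being 1.32-fold lower. Its other probe set gave -0.46 and -0.53.

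Psmf1, an inhibitor of the core, read 7.37, 7.40, 7.60 and 7.44 in Cbfb+/MYH11, against 7.13, 7.08, 6.99 and 6.98 in WT. It read 7.61, 7.66 and 7.64 in Cbfb-/-, against 7.49, 7.41 and 7.43 in Cbfb+/+. The groups were apart in both crosses. It was 1.32-fold higher with the fusion (adjusted p = 0.000445) and 1.14-fold higher in Cbfb-/- (adjusted p = 0.0773; -0.03 on the log2 scale under quantile normalization), both below the floor.

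The promoter windows of Psme4 and Psme1 are shown because these activators moved in opposite directions with the fusion. In Psme4 the capitals mark the antioxidant response element core on the other strand, with its first base at -7. In Psme1 they mark the interferon-stimulated response element core, also read on the other strand.
Psme4 (chr11:30771525-30771824, + strand): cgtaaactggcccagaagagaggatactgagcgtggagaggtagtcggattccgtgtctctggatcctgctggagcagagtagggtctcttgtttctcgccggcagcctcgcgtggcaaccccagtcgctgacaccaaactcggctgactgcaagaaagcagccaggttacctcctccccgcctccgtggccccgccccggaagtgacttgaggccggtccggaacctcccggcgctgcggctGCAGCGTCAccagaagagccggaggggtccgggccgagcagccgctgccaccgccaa
Psme1 (chr14:55578244-55578543, + strand): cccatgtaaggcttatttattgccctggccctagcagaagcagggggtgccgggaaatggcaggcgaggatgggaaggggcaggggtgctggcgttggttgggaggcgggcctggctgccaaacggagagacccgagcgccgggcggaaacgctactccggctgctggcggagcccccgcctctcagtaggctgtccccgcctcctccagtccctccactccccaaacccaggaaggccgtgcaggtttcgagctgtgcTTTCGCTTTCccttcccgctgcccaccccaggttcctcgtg

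Of the 3 immunoproteasome genes, Psmb8 and Psmb9 lay below the filter and Psmb10 passed it. Psmb8 read 3.81, 3.64, 3.65 and 3.49 in Cbfb+/MYH11, against 4.44, 4.58, 4.05 and 3.95 in WT, and 4.09, 3.98 and 4.13 in Cbfb-/-, against 4.92, 4.51 and 4.69 in Cbfb+/+. Psmb9 read 4.29, 4.50, 3.89 and 3.90 in Cbfb+/MYH11, against 4.68, 4.93, 4.30 and 4.31 in WT, and 4.59, 4.63 and 4.51 in Cbfb-/-, against 4.81, 4.98 and 4.95 in Cbfb+/+. Psmb8 was lower on all mutant arrays than on all arrays of their littermates in both crosses, and Psmb9 in the Cbfb-/- cross only. The median over all probe sets, which lies at a like level, was also lower on every mutant array than on those of its littermates. The share of all genes at this level without overlap is not given here. Both were under a log2 value of 6 on all 14 arrays and were not tested. Psmb10 read 6.61, 6.58, 6.67 and 6.55 in Cbfb+/MYH11, against 6.30, 6.73, 6.51 and 6.44 in WT, and 6.61, 6.76 and 6.86 in Cbfb-/-, against 6.75, 6.91 and 6.94 in Cbfb+/+. Its groups overlapped in both crosses, at 0.11 with an interval of -0.10 to 0.32 (adjusted p = 0.341; -0.15 under quantile normalization) and at -0.12 with an interval of -0.36 to 0.12 (adjusted p = 0.393).

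Lymphoid markers, whose cells use these subunits, averaged 3.48 to 4.23 over all arrays, and none passed the filter. Interferon response markers averaged 4.54 to 4.81 in Cbfb+/MYH11, against 4.61 to 5.18 in WT, and 4.52 to 4.64 in Cbfb-/-, against 4.86 to 5.04 in Cbfb+/+. Of the 2 tested, Irf1 and Oas1a, the second fell in Cbfb-/- blood by 0.79. Of the 8 antigen presentation genes tested, 1 rose and 0 fell in each mutant, where 30.5% and 19.5% of all genes rose. H2-D1, a class I heavy chain, rose by 1.44 with the fusion. Pdia3, a chaperone of class I loading, rose by 1.11 in Cbfb-/- blood. A negative difference was fitted for 5 of the 8 genes in each comparison. The medians of the 8 were -0.06 with the fusion and -0.26 in Cbfb-/- blood, against 0.26 and 0.13 over all genes. The tissue-specific core genes were also below the filter on all arrays. Psma8, known from testis, lay between 3.14 and 3.75, and Psmb11, known from the thymic cortex, between 3.12 and 4.26.

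Genes that work with the proteasome were mixed. Of 31 listed, 22 had a probe set and 21 were tested. With the fusion 7 rose (33.3%) and 2 fell (9.52%), where 30.5% of all genes rose and 5.63% fell. In Cbfb-/- blood 6 rose (28.6%), where 19.5% of all genes did, and 0 fell. The share that rose with the fusion is near that of all genes. Pomp, the maturation factor of the core, rose by 1.09 and 0.89 on the log2 scale. Uchl5, a deubiquitinase of the base, rose by 1.41 and 0.79, and Sem1, a small lid subunit outside the Psm names, rose by 1.00 with the fusion and was at 0.48 in Cbfb-/-.

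Txnl1, a thioredoxin bound to the regulatory particle, rose by 1.30 with the fusion. Ubqln2, a ubiquitin shuttle, and Zfand5 fell by 0.86 and 0.69 with the fusion, while the shuttle Rad23b rose by 1.35 in Cbfb-/- blood. Nfe2l1, the transcription factor of the antioxidant response element named above, was at 0.23 (adjusted p = 0.0968) and -0.04 (adjusted p = 0.843). The array reads its RNA, while its activity is known to be set largely at the protein level.

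The 2 genes of the pattern that are not proteasome genes also moved. Psme3ip1 rose 1.93-fold with the fusion (adjusted p = 0.000634) and was at 0.51 in Cbfb-/- blood (adjusted p = 0.0628). Psmc3ip was at 0.44 with the fusion (adjusted p = 0.0195) and rose by 0.70 in Cbfb-/- blood (adjusted p = 0.00717), having passed the filter only through the Cbfb-/- arrays.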

How the data were processed

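RNA of pooled embryonic blood was hybridized to 14 arrays in 4 genotype groups. The deposited log2 values come from RMA, run in Affymetrix Expression Console per the submitters' processing notes, and were used unchanged. Versions are not given in the sources used here. RMA works over all arrays of a run, so the values depend on which arrays were run together.

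Of 45101 probe sets, 34958 carried 1 symbol in the platform table and 932 several, which were left out. Each gene took its brightest probe set, and genes at a log2 value of 6 or more on at least 3 of 14 arrays were kept, which left 7393. A model with 1 mean per group and no covariate was fitted with limma 3.58.1 in R 4.3.3 (lmFit, contrasts.fit, eBayes; 10 residual and 2.81 prior degrees of freedom). Adjustment followed Benjamini and Hochberg over the 7393 genes. The fit was tested on simulated data. Within array pairs, the 2 pairs of each genotype had their own means. Members and lists, and the rule for genes shown by array (catalytic, immunoproteasome, activator and inhibitor genes, and the 4 largest and 4 smallest other changes in each mutant), were chosen with earlier results of these data known.

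Same-numbered arrays of the fusion cross correlated in their deviations from the group means (0.521, 0.407, 0.499 and 0.499), those of the other cross did not (0.034, 0.011 and 0.017). In the fusion cross, different numbers of 1 array pair correlated as well (0.417 to 0.514), so the numbers mark the pair. In all, 27 alternatives were run, which include quantile normalization, filters, probe set rules, the replicate block, array pairs and leaving out each array.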

Additional observations from a re-analysis of the deposited data

Results flagged for a closer look

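In a test of the difference of the 2 effects, 2 of the 43 proteasome genes passed, 1 in each direction, where 14.9% of all genes passed as higher with the fusion and 6.07% as lower. Psma5 was lower with the fusion relative to the loss of Cbfb (difference -0.593, limma, adjusted p = 0.0151), with all 4 Cbfb+/MYH11 arrays below all 4 WT arrays and overlap in the other cross. The call ended with centred arrays (-0.54) and with the mean of its probe sets (-0.24, adjusted p = 0.114), and it held in 7 of 14 fits without 1 array. Psmd10 was higher by 0.603 (adjusted p = 0.042), but it met the filter only through the Cbfb+/MYH11 arrays, so its test is not independent of the filter. It passed in 4 of 14 fits without 1 array and missed under quantile normalization (0.48, adjusted p = 0.111).

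A single array stood apart from its group for 3 genes. For Psmb3 the lowest WT array, array 1 at 8.38, lay below the others by 0.866 of the group's range. Psmb5 in WT had the same array lowest, at 10.08, with a gap of 0.840 of the range. For Psmd1 in Cbfb+/MYH11, array 2 was highest at 9.45, with a gap of 0.881 of the range. These gaps exceed the critical value of Dixon's test for 4 arrays, which chance does in about 1 group in 20. With 43 genes in each group of 4 arrays, chance alone would give several such gaps, so the 3 show no excess.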

How the results depend on the processing

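The median change of the proteasome genes stayed positive in both mutants under every alternative run. Quantile normalization gave 9 higher and 2 lower of 43 members in Cbfb+/MYH11, where 17.3% and 14.3% of all genes passed. The median there was 0.37. In Cbfb-/- it gave 2 higher members and a median of 0.24, where 13.3% of all genes were higher. In the difference of the effects 1 member passed. The median in Cbfb-/- was 0.484 with centred arrays and 0.359 with the mean of a gene's probe sets. That mean also gave 19 higher members of 36 in Cbfb+/MYH11 and 1 in the difference. A filter at 7 gave 1 in the difference. With no filter 1 member was lower in each mutant and 1 passed in the difference. With no fold floor 2 were lower in Cbfb+/MYH11, 23 were higher and 1 was lower in Cbfb-/-, and 5 passed in the difference.

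Within arrays 1 and 2, 1 member was lower, and 11 of 43 passed in the difference, all as higher with the fusion. Of all 7393 genes, 1730 passed there as higher, a share near that of the members, and 693 as lower. Within arrays 3 and 4, 19 were higher, where 24.6% of all genes were. In the difference 4 passed, 2 in each direction, where 1281 of all genes passed as higher and 1096 as lower. With arrays averaged to putative pools, limma called 0 members higher in Cbfb+/MYH11, 0 in Cbfb-/- and 0 in the difference. Of all 7393 genes it called 18 in Cbfb+/MYH11 and 0 in Cbfb-/-. At an unadjusted p under 0.05 there were 22 members higher and 1 lower in Cbfb+/MYH11 and 0 in Cbfb-/-, where 2152 and 336 of all genes passed. With the replicate number as a block, 29 members were higher in Cbfb+/MYH11, 17 in Cbfb-/-, and 3 passed in the difference. The block added Psmg1 and Psmg2 in Cbfb-/-, although same-numbered arrays of that cross did not correlate, so it shows no pairing there.

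Leaving out 1 array gave 22 to 30 higher and 0 to 1 lower members in Cbfb+/MYH11, 8 to 17 higher and 0 lower in Cbfb-/-, and 0 to 4 in the difference, with medians of 0.63 to 0.78 and 0.43 to 0.47. The lowest counts in Cbfb-/- were 8 without Cbfb-/- array 1 and 9 without Cbfb+/+ array 3.

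Signs changed only for members that had not passed. Under quantile normalization, Cbfb+/MYH11 against WT gave -0.15 for Psmb10, -0.053 for Psmd11, -0.23 for Psmd4 and -0.24 for Psmd5. Cbfb-/- against Cbfb+/+ then gave -0.11 for Psma5, -0.19 for Psmd5, -0.047 for Psmd8, -0.080 for Psmd9, -0.010 for Psme1 and -0.033 for Psmf1. Centred arrays gave 0.012 for Psmb5 with the fusion. The mean of probe sets gave -0.053 for Psmd4 with the fusion and -0.28 for Psma5 in Cbfb-/-. Leaving out 1 array gave -0.024 (without WT array 1) to 0.086 for Psmd4 with the fusion and -0.016 to 0.043 for Psmd5 in Cbfb-/-, below 0 without Cbfb-/- array 1 or Cbfb+/+ array 2 or 3. Beyond what fewer arrays or genes imply, the cause was not tested. Array signals near background limit Psmb8 and Psmb9.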
